A study of Mus musculus with 312 samples.

Results

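The genes described here are 10 components of epithelial cell-cell junctions, chosen by symbol from the 25136 genes used in mouse mammary cells labelled as basal. They comprise the classical cadherins Cdh1 (E-cadherin) and Cdh3 (P-cadherin), the desmosomal cadherins Dsg2, Dsg3, Dsc2 and Dsc3, the plaque proteins Jup, Pkp1 and Dsp, and the desmosomal membrane protein Perp. All 10 had an entry in the deposited counts. RNA was measured in 312 cells from FVB/NJ mice, each captured in its own chamber on the Fluidigm C1. The labels name a stage (adult or pregnancy) and a basal source for every cell, and give no treatment and no animal. Adult titles fall into 112 cells that carry the mark (2) and 125 cells without it, which the labels do not explain, and 75 cells are from pregnancy. According to the study, adult basal cells were sorted by surface CD29 and CD24 after cells of blood and vessels had been removed, and cells were pooled from several mice. No day of pregnancy is labelled. The study describes its C1 cells of pregnancy as total epithelium and retained more of them than the 75 here, so its set is not this one. The basal sort of the pregnancy cells here is known from the labels only. Each of the 3 title sets was treated as 1 sample, because cells are not replicates, and no difference between sets has a replicate check or a p-value. With titles of 1 form in pregnancy, the capture run cannot be told apart from the stage.

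Adherens junctions and desmosomes hold epithelial cells to one another. In an adherens junction, classical cadherins bind across the gap between cells and connect to actin through catenins. In a desmosome, desmogleins and desmocollins bind across the gap, plakoglobin (Jup) and plakophilins gather under the membrane, and desmoplakin (Dsp) connects them to keratin filaments. In the mammary gland, E-cadherin is best known from the inner luminal layer and P-cadherin from the outer layer of basal, contractile cells. Desmoglein 2 and desmocollin 2 occur widely in epithelia, whereas desmoglein 3, desmocollin 3 and plakophilin 1 are best known from stratified epithelia such as skin. Perp is a membrane protein of desmosomes and a known target gene of p53 and p63.

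Cells were retained with at least 50000 reads assigned to the genes used and at least 1000 detected genes, which left 81 marked adult, 58 unmarked adult and 71 pregnancy cells. Retained cells held 51464 to 405910 assigned reads, with set medians of 174910, 101320.5 and 230645. Levels are given as CPM, reads per 1000000 reads assigned in the same cell. Detection means at least 1 read after each cell was thinned at random to 50000 reads. Even at this equal depth, pregnancy cells held more genes (median 3208) than marked (2301) and unmarked (2203) adult cells. At least 6 of 11 core basal genes such as Krt14, Acta2 and Trp63 reached 100 CPM in 93.8%, 87.9% and 98.6% of the 3 sets. At least 3 of 7 pan-luminal genes, such as Epcam and Krt8, did so in 21.0%, 13.8% and 8.45%. The summed level of the 7 pan-luminal genes ranged from 0 to 3692 CPM in marked, 0 to 12581 CPM in unmarked and 57.7 to 5900 CPM in pregnancy cells. At least 3 of 8 fibroblast genes reached 100 CPM in 0 marked, 3 unmarked and 3 pregnancy cells. The summed level of the 8 was 0 to 3262 CPM in marked (median 0), 0 to 38176 CPM in unmarked (median 27.7) and 55.2 to 5782 CPM in pregnancy cells (median 561). Dcn, the matrix proteoglycan decorin and one of these 8, was detected in 25.9%, 53.4% and 100% of the 3 sets, while Lum and Dpt had no reads in marked cells. The mean of Dcn was 107, 677 and 1113 CPM, and Pdgfra also had its highest mean in pregnancy. The rest of the list did not follow Dcn. Col1a2 (133 against 1.94 CPM), Lum (68.9 against 1.76 CPM), Col3a1, Dpt, Col1a1 and Pi16 had higher means in unmarked adult than in pregnancy cells. Each of these was lowest in marked cells. At least 3 of 8 immune genes reached 100 CPM in 1 marked cell and in 0 unmarked or pregnancy cells, and Cd3e had no reads in any set. Their summed level reached 51182 CPM in marked, 75.0 in unmarked and 294 in pregnancy cells. Cd74 had the highest means of this list (495, 5.97 and 9.33 CPM). No cell met the same limit for 8 endothelial genes. The summed endothelial level reached 71.8, 5514 and 178 CPM, and Pecam1 had the highest mean in unmarked cells (95.4 CPM). Median sums of both lists were 0 in each set. The part of the fibroblast genes in the differences between adult and pregnancy was not tested. No cell reached 3 of 8 skin keratinocyte genes in any set, and Krt1 and Ivl had no reads in unmarked adult and pregnancy cells. The summed level of these 8 reached 178, 1053 and 535 CPM, with a median of 0 in each set. Krt10 was detected in 23.9% of pregnancy and 5.76% of all adult cells, but its mean was highest in unmarked cells (26.3 CPM). Sbsn had means of 2.44, 1.21 and 9.11 CPM, and the other genes of this list had means of at most 0.458 CPM.

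Pregnancy cells also differed among themselves by the number in their title, which the labels do not explain. Retained cells numbered up to 44 (42 cells) and from 45 to 75 (29 cells) had median assigned reads of 212164 and 243985 and median mitochondrial shares of 19.0% and 16.2%. This split was chosen after the numbers of the cells with Dsc2 were seen. Results that differ between both ranges of numbers are given for each below, and the cause of the difference was not tested.

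Perp was the most abundant of the 10 genes per length in every set. On the RPKM scale, which divides CPM by the exon length in kilobases, its mean was 287 in marked adult, 321 in unmarked adult and 724 in pregnancy cells. Dsg2, Dsp and Jup followed, with means between 30.7 and 64.0 RPKM. Their order changed from set to set, and each had cells above 1000 CPM beside cells at or near 0, so no order among the 3 is read from these means. Cdh3 (18.0 to 29.0 RPKM), Pkp1 (9.89 to 20.4) and Cdh1 (5.92 to 15.5) were next. Their adult means lay close together, whereas in pregnancy Cdh3 lay next to Jup. In the adult sets Dsc2, Dsc3 and Dsg3 were lowest, whereas in pregnancy the mean of Dsc2 (9.49 RPKM) lay above that of Cdh1 (5.92). Dsg3 had no read in marked adult or pregnancy cells. For Pkp1 and Cdh1 the adult medians were 0, so that their means come from a minority of cells, and for Dsc2, Dsc3 and Dsg3 the median was 0 in all sets.

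**Figure D1:**
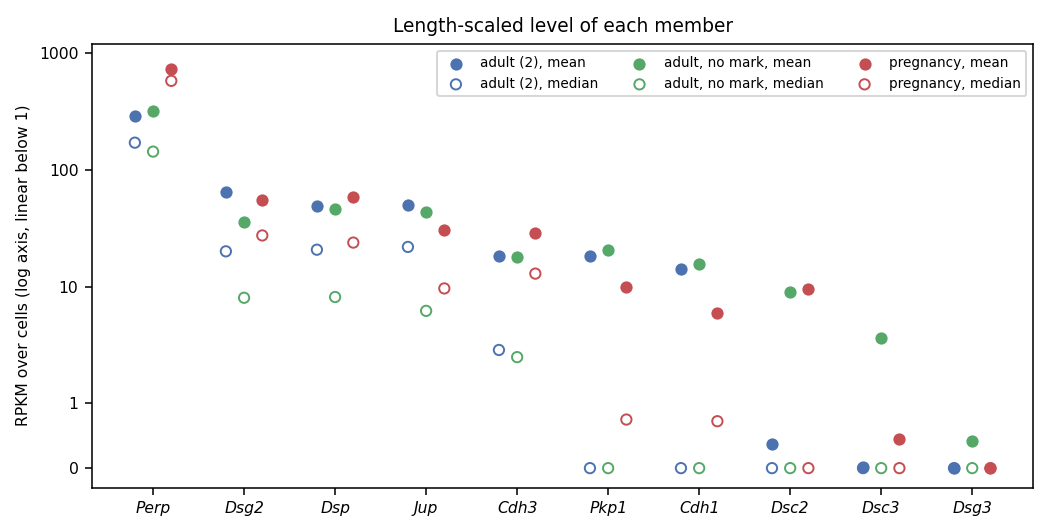
Mean (filled) and median (open) RPKM of each of the 10 genes over retained cells of marked adult, unmarked adult and pregnancy, on a log axis that is linear below 1. Perp stands above the other genes in every set, and the medians of Dsc2, Dsc3 and Dsg3 are at 0.

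The main comparison asks how these junction genes differ between adult and pregnancy cells. A gene was called higher or lower when the ratio of mean CPM + 10 passed 2-fold in the same direction against each adult set separately. Perp was the 1 member called higher and Cdh1 the 1 member called lower, and the Cdh1 call did not hold without a single adult cell. With only pregnancy cells numbered up to 44, 1 member (Perp) was called higher and 0 lower. With only those from 45, 2 (Perp and Dsc2) were called higher and 3 (Cdh1, Jup and Pkp1) lower. No share of all genes called was taken for either range, so these counts cannot be set against one. The split was drawn at the cells with Dsc2, which is also outside the tested group below. The shares that follow are for all retained pregnancy cells. In all, 4548 genes reached an average of 50 CPM in adult or in pregnancy, and of these 10.1% were called higher and 6.02% lower. Higher calls were thus 62.6% of all calls, against 52.0% with CPM scaled to reads in all genes, 80.0% with TMMwsp scaling factors and 94.4% on the mean of log2 values. On these other scales 7.78%, 16.1% and 12.0% of tested genes were called higher and 7.19%, 4.02% and 0.704% lower. Of the members, 7 reached that level (all but Dsg3, Dsc2 and Dsc3), so that 1 call among 7 in each direction is near these shares. The median log2 ratio of pregnancy over adult was 0.08 over those 7 members and -0.01 over all 10, against 0.05 over all tested genes. Detection followed the same line. The median gain in the share of cells from adult to pregnancy was 11.7 percentage points over the 7 members and 11.7 over all tested genes.

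**Figure D2:**
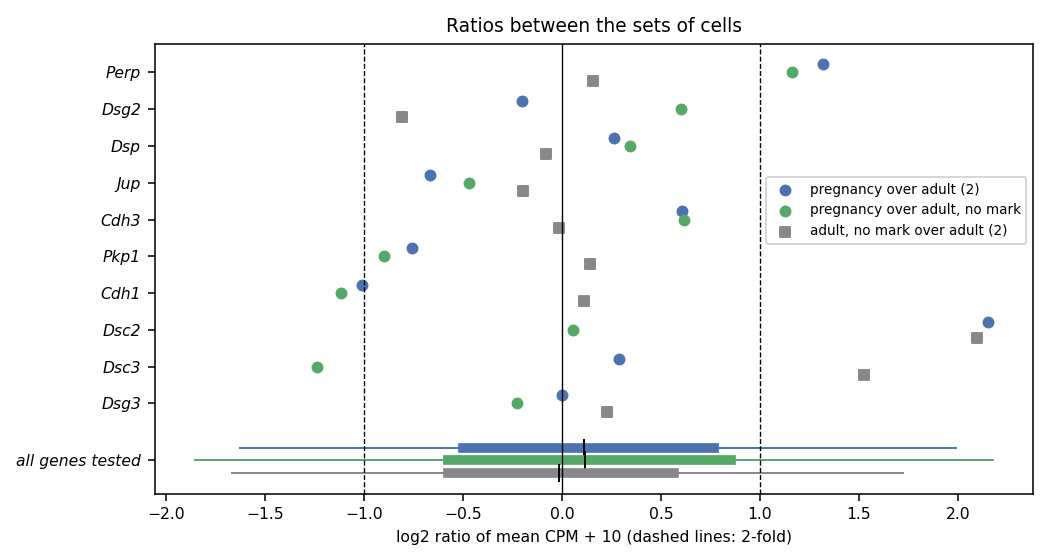
Log2 ratios of mean CPM + 10 for each of the 10 genes (pregnancy over marked adult, pregnancy over unmarked adult, and unmarked over marked adult), with bars below for all 4548 tested genes (thick line from the 25th to the 75th percentile, thin line from the 5th to the 95th, tick at the median). Perp lies beyond 2-fold against both adult sets and Cdh1 on the opposite side, while Dsc2 and Dsc3 differ most between the 2 adult sets.

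Perp (GeneID 64058; chromosome 10, 18845071 to 18857073, GRCm38) had a higher level in pregnancy than in either adult set. In marked adult cells it ranged from 0 to 3527 CPM with a median of 325, and in unmarked adult cells from 0 to 4089 CPM with a median of 272. In pregnancy it ranged from 21.9 to 4174 CPM with a median of 1100. The upper ends of the 3 sets overlap, but no pregnancy cell was at 0, where 11 marked and 8 unmarked adult cells were. Of the 71 pregnancy cells, 59 lay above the marked and 61 above the unmarked median. Mean levels were 546, 610 and 1376 CPM, a log2 ratio of 1.32 over marked and 1.16 over unmarked adult cells, against 0.16 between the 2 adult sets. Of all tested genes, 8.00% had a smaller ratio against the adult sets at least this large. Perp was detected in 81.5% of marked adult cells (exact Clopper-Pearson 95% interval 71.3 to 89.2%), 84.5% in the unmarked set (72.6 to 92.7%) and all 71 pregnancy cells (94.9 to 100%). Its reads were spread over many cells, and the 5 highest pregnancy cells held 20.1% of the pregnancy sum. Both ranges of cell numbers passed 2-fold, with log2 ratios of 1.38 and 1.23 over marked and unmarked adult cells for those up to 44 and of 1.22 and 1.06 for those from 45. With CPM scaled to reads in all genes, mitochondrial and ribosomal genes included, the ratios were 1.06 and 0.99, just short of 2-fold against unmarked cells. Mitochondrial genes took a median of 9.65% of reads in marked, 15.6% in unmarked and 18.4% in pregnancy cells, and their part in this difference was not tested.

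Cdh3 (GeneID 12560; chromosome 8, 106510852 to 106556911) and Cdh1 (GeneID 12550; chromosome 8, 106603350 to 106670247) are neighbours on the chromosome and had different patterns. Cdh3, the P-cadherin of the basal layer, ranged from 0 to 1182 CPM in marked adult cells (median 11.4), from 0 to 943 in unmarked adult cells (median 9.93) and from 0 to 1129 in pregnancy cells (median 51.6). The ranges overlap almost entirely, while the middle of the distribution sat higher in pregnancy, where 55 of 71 cells lay above the marked and 57 above the unmarked median. The mean was 72.8, 72.0 and 116 CPM, a log2 ratio of 0.60 and 0.62 over marked and unmarked adult cells, against -0.01 for unmarked over marked. This is below the 2-fold rule. Cdh3 was detected in 51.9%, 50.0% and 66.2% of the 3 sets. This gain of 15.1 percentage points from adult to pregnancy stands beside the gain of 11.7 over all genes. Detection was 73.8% (31 of 42) in pregnancy cells numbered up to 44 and 55.2% (16 of 29) in those from 45, against 51.1% in all adult cells. Most of the gain thus lay in the former range. Means in the same ranges were 107 and 129 CPM.

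Cdh1 had reads in a minority of adult cells and in about as many pregnancy cells as lacked it. In marked adult cells its median was 0, and 31 of 81 cells held a read, up to 1086 CPM. In unmarked adult cells the median was 0, and 13 of 58 cells held a read, up to 3276 CPM. In pregnancy the median was 3.19 CPM, and 37 of 71 cells held a read, up to 577 CPM. Means were 62.6, 68.3 and 26.1 CPM, and the log2 ratios were -1.01 over marked and -1.12 over unmarked adult cells. The unmarked mean came mostly from cell 130, which held 628 of the 741 Cdh1 reads there and 82.7% of the summed CPM. That cell carried all 7 pan-luminal genes and 0 of the 11 core basal genes. Without it, the unmarked mean was 12.0 CPM and pregnancy lay above that set (log2 ratio 0.71) and below the marked set (-1.01). With only cells that carried 6 core basal genes, the ratios were likewise 0.59 and -1.12. Without cells that carried 3 pan-luminal genes they were 1.05 and -0.63. The direction of Cdh1 against adult therefore depended on which adult set was used once that cell was left out. It also differed in size between pregnancy cells. Of those numbered up to 44, 30 of 42 held a Cdh1 read (71.4%, interval 55.4 to 84.3%) with a mean of 38.1 CPM, and of those from 45, 7 of 29 (24.1%, interval 10.3 to 43.5%) with a mean of 8.77 CPM. The log2 ratios were -0.59 and -0.70 for the former, short of 2-fold, and -1.95 and -2.06 for the latter.

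Detection of Cdh1 after thinning was 33.3% in marked adult cells (interval 23.2 to 44.7%), 17.2% in the unmarked set (8.59 to 29.4%) and 26.8% in pregnancy (16.9 to 38.6%), where it was 40.5% in cells numbered up to 44 and 6.90% in those from 45. Marked adult cells had the most cells at 100 CPM or more, 16 of 81 (19.8%, interval 11.7 to 30.1%), against 4 of 58 and 4 of 71 (5.63%, interval 1.56 to 13.8%). Among those 16 cells, 4 carried at least 3 pan-luminal genes, against 13 of the other 65, and the median was 10 core basal genes in both. Marked adult cells high in Cdh1 thus carried as many basal markers as the others of their set. Their median number of pan-luminal genes was 2, against 1 in the other 65.

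**Figure D3:**
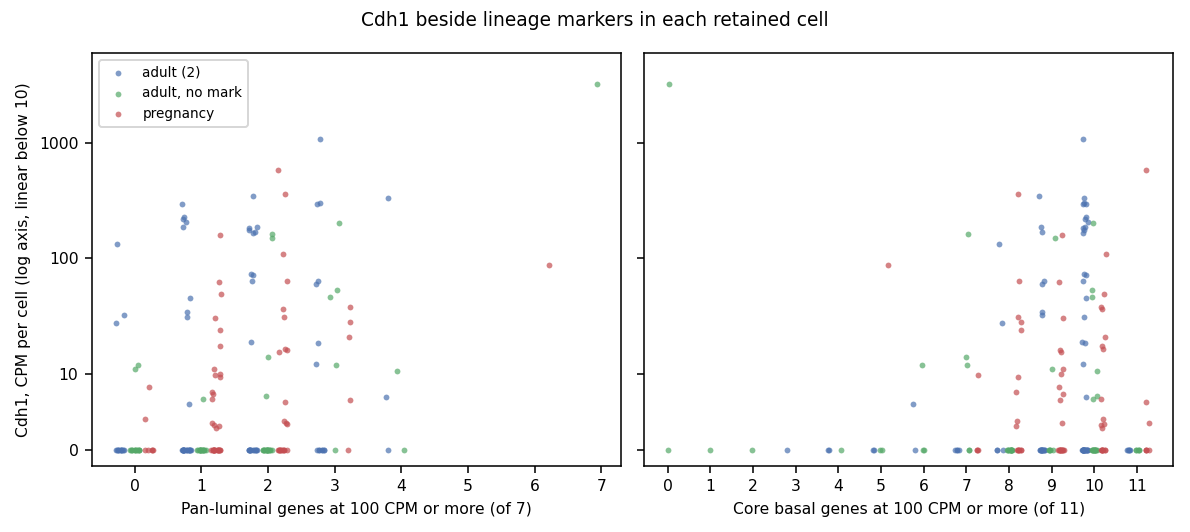
Cdh1 in CPM for each retained cell (log axis, linear below 10) against the number of pan-luminal genes (left) and core basal genes (right) at 100 CPM or more in the same cell, with a small horizontal spread added. Unmarked adult cell 130 stands alone at 3276 CPM with 7 pan-luminal and 0 core basal genes, while the other cells with Cdh1 carry 5 or more core basal genes.

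Within cells, Cdh3 was the more frequent of the 2 classical cadherins. Per length, Cdh3 exceeded Cdh1 in 32 of 81 marked, 32 of 58 unmarked and 55 of 71 pregnancy cells, and Cdh1 exceeded Cdh3 in 25, 6 and 14. After thinning, both were detected in 24.7% of marked adult, 10.3% of unmarked adult and 16.9% of pregnancy cells. Neither was detected in 39.5%, 43.1% and 23.9%.

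Dsg2 (GeneID 13511; chromosome 18, 20558074 to 20604526) was the main desmoglein. It ranged from 0 to 2016 CPM in marked adult cells (median 115), from 0 to 1106 in unmarked adult cells (median 45.9) and from 0 to 3793 in pregnancy cells (median 157). The sets overlap. The mean of 318 CPM in pregnancy lay between those of marked (367) and unmarked (206) adult cells, so the log2 ratio was -0.20 against the former and 0.60 against the latter, and the difference within adult (-0.81) was larger than either. With TMMwsp factors the ratios were 0.36 and 1.27. Detection was 65.4% in marked, 63.8% in unmarked and 84.5% in pregnancy cells (interval 74.0 to 92.0%), 19.8 percentage points higher in pregnancy than in all adult cells. The pregnancy mean was 228 CPM in cells numbered up to 44 and 447 CPM in those from 45. Of the 71 pregnancy cells, 6 held no Dsg2 read, against 22 of 81 marked and 18 of 58 unmarked adult cells. Dsg3 (GeneID 13512; chromosome 18, 20510274 to 20541310), the desmoglein of the deep epidermis, had 11 reads in all. They lay in unmarked adult cells 128 (90.1 CPM) and 163 (9.36 CPM). At 0 reads, 3 counts over the set allow a level of up to 0.200 CPM in marked adult and 0.183 CPM in pregnancy cells.

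The desmocollins were rare. Dsc2 (GeneID 13506; chromosome 18, 20030633 to 20059554) had reads in 4 of 81 marked adult cells, with 79.1 CPM as the highest value. It had reads in 6 of 58 unmarked adult cells, where the 3 highest values were 1923, 252 and 113 CPM. It had reads in 15 of 71 pregnancy cells, where the 3 highest were 881, 439 and 399 CPM. All 15 carried title numbers from 45 to 75, where they were 15 of 29 cells (51.7%, interval 32.5 to 70.6%), against 0 of 42 cells numbered up to 44 (interval 0 to 8.41%). Dsc2 was thus found in 1 range of the pregnancy numbers, and the single highest value was in an adult cell. Since the split was drawn at these cells, the intervals do not measure how unusual this contrast is. After thinning it was detected in 3.70% (interval 0.770 to 10.4%), 8.62% (2.86 to 19.0%) and 19.7% (11.2 to 30.9%). Against all 139 adult cells (5.76%, interval 2.52 to 11.0%) the gain was 14.0 percentage points. Mean levels were 1.67, 39.9 and 41.9 CPM, and unmarked adult cell 152 alone held 83.0% of the unmarked sum. Without it that mean was 6.92 CPM, and the log2 ratio of pregnancy over unmarked cells went from 0.06 to 1.62. Dsc2 was then past 2-fold against both adult sets (2.15 over marked). With only pregnancy cells from 45, the ratios were 3.27 over marked and 1.17 over unmarked cells with that adult cell kept. That range was drawn at the cells with Dsc2. Dsc3 (GeneID 13507; chromosome 18, 19960930 to 20002410) had 2 reads in marked adult, 270 in unmarked adult and 33 in pregnancy cells. Of the 270, 269 lay in unmarked cell 154 (1104 CPM). Outside that cell its level did not exceed 95.5 CPM in any cell, and the thinned share was 1.23%, 1.72% and 2.82%. Dsc2 and Dsc3 were not detected together after thinning in any cell. Dsc3 was detected in 1 marked, 1 unmarked and 2 pregnancy cells, too few to tell whether the 2 genes avoid one another.

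**Figure D4:**
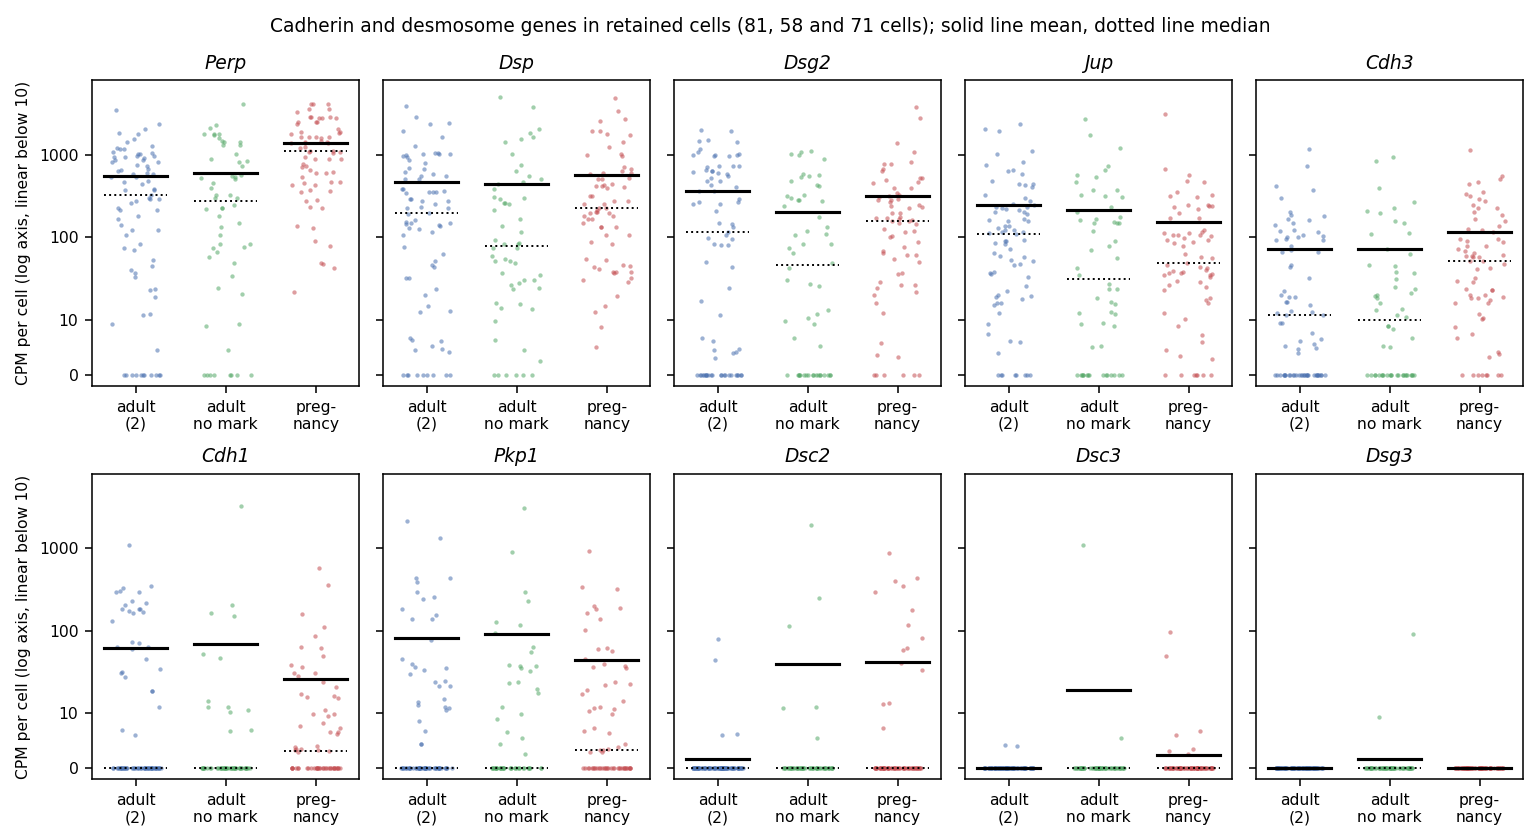
CPM of each gene in every retained cell (81 marked adult, 58 unmarked adult and 71 pregnancy cells) on a log axis that is linear below 10, with the mean as a solid line and the median as a dotted line. Perp sits higher in pregnancy across the set, whereas the adult means of Cdh1, Dsc2 and Dsc3 in unmarked cells are each carried by 1 cell above 1000 CPM.

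Of the plaque proteins, Dsp (GeneID 109620; chromosome 13, 38151294 to 38198577) was present in most cells. It ranged from 0 to 3879 CPM in marked adult cells (median 198), from 0 to 5073 in unmarked adult cells (median 78.1) and from 5.04 to 4868 in pregnancy cells (median 228). The ranges overlap, and the pregnancy median lay close to the marked one. Means were 467, 441 and 562 CPM, with log2 ratios of 0.26 and 0.34, and of -0.03 and 0.17 when scaled to reads in all genes. Without thinning, Dsp had a read in 88.9% of marked adult, 89.7% of unmarked adult and all 71 pregnancy cells, and after thinning in 81.5%, 81.0% and 93.0%. That gain, 11.7 percentage points over all adult cells, equals the median of all genes. By title number, the thinned share was 100% in the 42 pregnancy cells up to 44 and 82.8% (24 of 29) in those from 45. In all adult cells it was 81.3%, so most of the gain lay in the former range. Means in the same ranges were 611 and 491 CPM.

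Jup (GeneID 16480; chromosome 11, 100368856 to 100397839), which serves adherens junctions as well as desmosomes, had the opposite sign. It ranged from 0 to 2356 CPM in marked adult cells (median 109), from 0 to 2738 in unmarked adult cells (median 31.0) and from 0 to 3086 in pregnancy cells (median 48.3). The pregnancy median thus lay below that of marked and above that of unmarked cells. Means were 250, 217 and 154 CPM, with log2 ratios of -0.67 and -0.47, short of 2-fold, and of -0.54 and 0.17 on the mean of log2 values. In pregnancy, cell 6 accounted for 28.3% of the summed level, and without it the ratios were -1.09 and -0.89. For pregnancy cells numbered up to 44 they were -0.38 and -0.18, and for those from 45, past 2-fold, -1.23 and -1.03. Jup was detected in 84.0%, 70.7% and 80.3% of cells, so that a lower mean in pregnancy went with almost the same share of cells (a gain of 1.86 percentage points over adult, against 11.7 for all genes).

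Pkp1 (GeneID 18772; chromosome 1, 135871394 to 135919207), a plakophilin of stratified epithelia, had a median of 0 in both adult sets and 3.36 CPM in pregnancy. The highest cells reached 2140, 3104 and 928 CPM in marked adult, unmarked adult and pregnancy cells, and below these the sets overlap. Means were 81.8, 91.4 and 44.4 CPM, with log2 ratios of -0.76 and -0.90, the second lowest of the members in the tested group after Cdh1. The means again depended on few cells. Unmarked cell 131 held 58.6% of its set's sum, and without it pregnancy lay above unmarked cells (0.16). Pregnancy cells numbered up to 44 had ratios of -0.52 and -0.66, and those from 45 passed 2-fold with -1.18 and -1.33. On the mean of log2 values the ratio of pregnancy over adult was 0.00482. Detection was alike in the 3 sets, at 32.1%, 31.0% and 33.8%.

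To ask how many cells held every kind of desmosome component, a complete set was defined as at least 1 read of a desmoglein (Dsg2 or Dsg3), a desmocollin (Dsc2 or Dsc3), Jup, a plakophilin (Pkp1, Pkp2 or Pkp3) and Dsp in the same cell. After thinning, 1 of 81 marked adult cells (1.23%, interval 0.0313 to 6.69%), 2 of 58 unmarked adult cells (3.45%, from 0.420 to 11.9%) and 7 of 71 in pregnancy (9.86%, from 4.06 to 19.3%) met it. Of the 7, 6 were among the 29 pregnancy cells numbered from 45 (20.7%) and 1 among the 42 others (2.38%). A complete set needs a desmocollin and the split was drawn at the cells with Dsc2. This contrast is therefore no result separate from that of Dsc2. With another random draw of reads the adult counts were 0 and 0, and the pregnancy count was again 7. Without thinning, 2.47%, 6.90% and 22.5% of cells met it. The desmocollins were the component most often lacking, with a share of 4.94%, 10.3% and 22.5% (in pregnancy 1 of 42 cells numbered up to 44 and 15 of 29 from 45), and plakophilins were next at 43.2%, 50.0% and 63.4%. Leaving the desmocollin out of the definition raised the complete share to 25.9%, 25.9% and 35.2%. The median cell held 4, 4 and 5 of the 10 members after thinning. At the same depth it held 2301, 2203 and 3208 of all genes used, and the part of this general gain in the shares above was not tested. No pregnancy cell held fewer than 3, whereas adult cells ranged from 0 to 8. A missing read at this depth does not show that a transcript was absent from the cell.

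**Figure D5:**
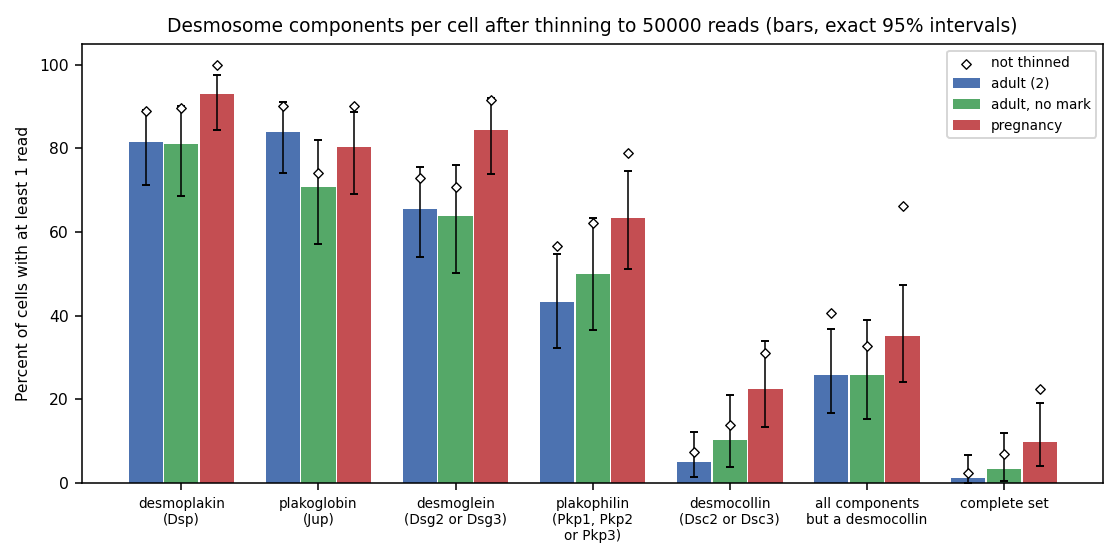
Percent of cells with at least 1 read of each desmosome component, of all components but a desmocollin and of the complete set, by title set, after thinning to 50000 reads (bars with exact 95% intervals) and without thinning (diamonds). Desmoplakin, plakoglobin and a desmoglein are found in most cells of each set, and a desmocollin in 4.94%, 10.3% and 22.5%.

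Of 10 other desmosome genes, 2 (Dsg1b and Dsg1c) had no reads in any retained cell, and 1 (Pkp4) reached a mean of 50 CPM. None of the 10 was both tested and called. Pkp4, a plakophilin relative found at several junctions, had means of 226, 212 and 275 CPM in marked adult, unmarked adult and pregnancy cells (log2 ratios 0.27 and 0.36). With TMMwsp factors it passed 2-fold against both adult sets (1.03 and 1.17). Pkp3 had means of 66.5, 24.3 and 41.7 CPM, and Ppl (periplakin) 7.62, 17.3 and 12.5 CPM. Dsg1a and Dsc1, which with Dsg1b and Dsg1c are known from the upper epidermis, had means of at most 0.0942 CPM in each set. Dsg1a, Dsg1b and Dsg1c are near-identical copies, and reads of such copies may not be told apart.

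Of 15 partners of cadherins in adherens junctions, 11 were tested, 0 were called higher and 1 was called lower. That gene was Nectin3, an adhesion molecule bound to afadin, with means of 139 and 197 CPM in the adult sets and 58.6 CPM in pregnancy (log2 ratios -1.12 and -1.60). With TMMwsp factors its ratios were -0.75 and -1.32, which is no call. On the mean of log2 values the sign turned (0.47 and 0.38), and its detection after thinning was 25.9 percentage points higher in pregnancy. Among the most abundant partners, Vcl (vinculin, which binds actin at junctions) had means of 730, 747 and 1368 CPM (log2 ratios 0.90 and 0.86). Ctnnb1 (beta-catenin) had means of 871, 561 and 785 CPM, and Ctnna1 (alpha-catenin) 607, 549 and 507 CPM. Ctnnd2, a relative of p120-catenin, had means of 420, 399 and 682 CPM (log2 ratios 0.69 and 0.76). The count of 0 higher calls depended on the scale. With TMMwsp factors 1 partner (Afdn, the afadin gene, 1.31 and 1.19) was called higher, and on the mean of log2 values 3 were, namely Vcl (1.69 and 1.83), Ctnnd2 (2.15 and 1.92) and Lima1 (1.28 and 1.94), which encodes an actin-binding protein. Of all tested genes, 16.1% were called higher with TMMwsp factors and 12.0% on the mean of log2 values. The median log2 ratio of the 11 tested partners was 0.19, against 0.05 over all tested genes.

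Of 20 other cadherins, 1 had no reads (Cdh16) and 1 was tested, with 0 called. This was Cdh13 (T-cadherin, which lacks a cytoplasmic tail), with means of 35.1, 133 and 250 CPM and log2 ratios of 2.53 over marked and 0.86 over unmarked adult cells. It passed 2-fold against both sets with TMMwsp factors (3.06 and 1.21) and on the mean of log2 values (1.65 and 1.33). The neuronal and mesenchymal cadherins Cdh2 and Cdh11 had means of 1.53 to 2.52 and 2.54 to 9.91 CPM, and Cdh19 0 to 7.61 CPM. Of 7 known repressors of Cdh1, 1 (Snai2) was tested and 0 were called. Snai2, also called Slug and a known regulator of basal mammary cells, had means of 120, 209 and 259 CPM with log2 ratios of 1.05 and 0.30, and of 1.48 and 1.22, a higher call, on the mean of log2 values. The other repressors had means of at most 18.6 CPM in each set. That value was Twist2 in pregnancy, which was past 2-fold against both adult sets (1.51 and 1.49) but below the limit of 50 CPM. After thinning, Twist2 was detected in 1.41% of pregnancy cells.

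Across cells of 1 set, the members varied with little relation to one another. For the 6 members detected in at least 25% of cells of every set (Cdh3, Dsp, Jup, Dsg2, Perp and Pkp1), the 15 pairs had a median Spearman rho of thinned reads of 0.12 over 81 marked adult, 0.14 over 58 unmarked adult and 0.03 over 71 pregnancy cells. The pair Dsp and Perp had rho of 0.31, 0.51 and 0.25, the highest value in both adult sets, and Perp and Pkp1 the highest in pregnancy (0.27). The cells of each correlation share a title set and hold many zeros, so these values are a description. Among 2672 genes with the same detection, none reached a rho of 0.3 with any of these members in all 3 sets. By that rule no gene is named as varying like them.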

How the data were processed

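Single-cell libraries were made on the Fluidigm C1 with Nextera XT and sequenced on a NextSeq 500. The authors deposited raw counts of read pairs for each cell and Entrez gene, without normalization or molecular identifiers. The authors aligned reads to mm10 with Subread 1.5.0 and counted them over built-in RefSeq genes with featureCounts. Strand use is not given in the sources used here. A deposited table of the whole series was not used. IDs were matched to symbols and gene coordinates with RefSeq of GRCm38 (25275 of 27179 matched, and the 1904 others held 1.66% of reads). After the study's filter, 15 mitochondrial and 124 ribosomal genes and unmatched IDs were left out, and cells needed 50000 assigned reads and 1000 genes. No doublet caller was run.

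Log2 ratios are of mean CPM + 10, with cells weighted equally, and understate changes of low genes. With 1 sample per group no test was run. Intervals (95%, exact Clopper-Pearson) and limits from 3 counts cover counting error only, since PCR copies are not independent molecules, and not variation between animals. The rule of size was 2-fold against both adult sets. All 10 members are described. Of the other lists, genes past the rule and up to 4 of the most abundant others are named, and other genes, and cells named by number, were chosen after their values were seen. Cell numbers are those of the titles and pair no cells. The members and lists were chosen with earlier results of these data known. Ratios were tested on simulated data that changed only abundant genes, by more than 2-fold. That check does not cover the rare members or changes near 2-fold. Alternatives changed the cell filter, pseudocount, scaling (edgeR 4.0.16 TMMwsp), averaging, adult set, highest cells, marker content and detection limit, and, chosen after seeing the data, the range of pregnancy cell numbers. Python 3.11.15, NumPy 2.4.6, SciPy 1.17.1 and R 4.3.3 were used.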

Additional observations from a re-analysis of the deposited data

Results flagged for a closer look

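Reads of the 10 members also appeared in cells that the filter left out, above the limit of 3 reads that a count of 0 allows. The left-out cells held 939 member reads of 452520 assigned reads in 31 marked adult cells (0.208%, exact interval 0.194 to 0.221%), 1124 of 719223 in 67 unmarked adult cells (0.156%, interval 0.147 to 0.166%) and 149 of 93619 in 4 pregnancy cells (0.159%, interval 0.135 to 0.187%). In retained cells the shares were 0.182%, 0.174% and 0.256%. The left-out share was thus above the retained one in marked adult cells and below it in the other two sets, and these intervals cover counting error only.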

How the results depend on the processing

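Over the adult cells of each of the 16 alternatives, Perp was higher in pregnancy with log2 ratios from 1.03 to 2.08, and Cdh1 lower, from -1.41 to -0.11 under the 14 that kept all pregnancy numbers. The median of all tested genes shifted by -0.15 when scaled to reads in all genes, by 0.24 with TMMwsp factors and by 0.32 on the mean of log2 values. The median log2 ratio of the 10 members, -0.01, became -0.27 with a pseudocount of 1 CPM, 0.26 with TMMwsp factors, 0.30 on the mean of log2 values 0.22 without the highest adult cell of each member and -0.34 with only pregnancy cells numbered up to 44. It moved by less than the spread between the adult sets (0.154) under the other 11. Members called higher went from 1 to 0 when scaled to reads in all genes, and to 2 (Perp and Dsc2) without each member's highest adult cell. Members called lower went from 1 to 0 with a pseudocount of 100 CPM, TMMwsp factors, the mean of log2 values, without each member's highest adult cell, with only cells carrying at least 6 core basal genes, and without cells carrying 3 pan-luminal genes. They went to 2 (Cdh1 and Pkp1) without the highest pregnancy cell of each. With only pregnancy cells numbered up to 44 or only those from 45, a split chosen after seeing the data, 1 and 2 members were called higher and 0 and 3 lower, and the complete desmosome share was 2.38% and 20.7%. No share of all genes called was taken for either range. The Dsc2 call and the complete shares follow in part from the split, which was drawn at the cells with Dsc2. The cause of the changes under other scalings was not tested. Of 160 ratios of single members under an alternative, including those over 1 adult set only, 94 left the counting interval of the main ratio. Over unmarked cells alone, the ratio of Cdh1 turned positive under 4 alternatives, at 0.30 on the mean of log2 values, 0.71 without the highest adult cell, 0.59 with core basal cells only and 1.05 without pan-luminal cells, and that of Perp under 0.

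The share with a complete desmosome set was 0%, 0% and 1.41% (marked adult, unmarked adult, pregnancy) at 20000 reads, 0% in each at 100 CPM, 0% in marked cells at 10 CPM, 0% in both adult sets with another draw, and 22.5% in pregnancy without thinning. Median members per cell were 3, 2 and 3 at 100 CPM, and 6 in pregnancy without thinning. Without the limit of 50 CPM, 3.64% of 25136 genes were called higher and 1.75% lower. Cells with Dsc2 numbered 3, 5 and 14 at 50000 reads and 4, 6 and 15 without thinning. No paired analysis was possible because the result comes from no test and cell numbers pair no cells.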
